A study of Homo sapiens with 9 samples.

Results

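The genes described here encode collagens, laminins, integrins and further proteins of the extracellular matrix, measured by RNA-seq in VCaP, an established epithelial cell line from prostate cancer. They were chosen by symbol: every collagen chain named COL, a number, A and a number, every laminin chain named LAMA, LAMB or LAMC with a number, every integrin subunit named ITGA or ITGB with a number, *ITGAV*, and 14 named matrix genes, namely *FN1*, *FBN1*, *FBN2*, *VTN*, *SPARC*, *LOX*, *LOXL2*, *TNC*, *VCAN*, *THBS1*, *FBLN1*, *NID1*, *HSPG2* and *AGRN*. The rule used no measured value, and it left out integrin genes whose symbol ends in another letter, such as *ITGAM* and *ITGAL*. It gave 90 of the 19918 genes in the count tables, and 60 of these were counted highly enough to be tested, among 12810 genes tested in all. The cells were transfected with the siRNA si025, with the siRNA si033 or with a control siRNA, at 100 pmol, and were harvested 72 h later. The target of both si025 and si033 was the first exon of the long non-coding RNA *IGF1R-AS1*, and the labels give the genotype as *IGF1R-AS1* knockdown in these groups and WT in control. Each group held 3 libraries. The study calls the replicates of its siRNA knockdowns biological, while the labels do not name the cultures, and *p* values measure the spread between these libraries. The level of *IGF1R-AS1* itself, and with it the extent of the knockdown, was not analysed here.

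Epithelial cells rest on a basement membrane, a sheet in which laminin heterotrimers of an alpha, a beta and a gamma chain and a network of collagen IV are linked by nidogen and by the heparan sulphate proteoglycans perlecan and agrin. Integrins, receptors made of an alpha and a beta subunit, bind laminins, collagens, fibronectin or vitronectin outside the cell and connect them to the actin cytoskeleton. Fibrillar collagens and most interstitial glycoproteins are supplied largely by fibroblasts, whereas carcinoma cells make laminins, integrins and selected matrix proteins themselves.

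The libraries held from 11649811 to 28492259 counts. All 11 markers of luminal prostate cells and of VCaP that were used, including *KLK2*, *TMPRSS2* and *ERG*, were tested, and their summed level was 5721 to 5812 CPM (counts scaled to a common library size with TMM) in control, 8453 to 8756 CPM with si025 and 5176 to 5376 CPM with si033. Of these markers, 10 (90.9%) were higher than control with si025 and 1 was not called, beside 32.9% of all tested genes higher and 28.8% lower. With si033 4 were higher and 4 lower (36.4% each), beside 26.9% and 27.8% of all tested genes. None of 8 mesenchymal transition markers (among them *VIM*, *ZEB1*, *TWIST1* and *CDH2*) was counted highly enough to be tested, and their summed level stayed at or under 1.96 CPM in every library. Fibroblast markers summed to between 18.4 and 20.2 CPM in control, 36.8 and 43.2 CPM with si025 and 10.7 and 13.4 CPM with si033. This sum was mostly *LUM*, which encodes the proteoglycan lumican, at 16.4, 14.4 and 15.9 CPM in control, 33.4, 38 and 39.8 CPM with si025 and 7.25, 9.21 and 8.7 CPM with si033. Of the other fibroblast markers, *ACTA2* was tested and was called with neither siRNA, *THY1* was at 0 in every library, and *DCN*, *PDGFRA*, *PDGFRB*, *FAP*, *S100A4* and *POSTN* were each under 1 CPM throughout. Endothelial markers, 1 of 5 tested, summed to at most 2.34 CPM, and leukocyte markers, 2 of 6 tested, to at most 3.04 CPM. In bulk RNA, fewer cells of a kind and less RNA per cell cannot be told apart, and the part of these marker shifts in the results that follow was not tested.

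With si025, 30 of the 60 tested matrix and integrin genes (50%) rose and 14 (23.3%) fell, beside 32.9% of all tested genes higher and 28.8% lower, where a gene is called if its adjusted *p* value in edgeR's quasi-likelihood test is under 0.05. At least 2-fold changes were made by 17 members upward (28.3%) and 3 downward (5%), beside 5.51% and 1.51% of all genes. With si033 the balance was the other way. Here 11 members (18.3%) rose and 25 (41.7%) fell, beside 26.9% and 27.8% of all genes, and 2 (3.33%) were at least 2-fold higher and 10 (16.7%) at least 2-fold lower, beside 3.06% and 2.08%. The siRNAs were also compared directly, in the same fit of all 9 libraries, so the control libraries entered the filter, the scaling and the estimate of spread. Between them 36 members (60%) were higher with si025 and 11 (18.3%) were higher with si033, beside 31.2% and 29.7% of all genes. At least 2-fold differences separated 21 members (35%) in the first direction and 3 (5%) in the second, beside 5.56% and 2.14%. The median log2 fold change of the members was 0.31 with si025, -0.21 with si033 and 0.56 between the siRNAs, with medians over all tested genes of 0.02, 0.0033 and -0.0015. Changes of single genes are given below as log2 fold changes with their SE, against control unless the siRNAs are compared.

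A member that was counted in a single group could pass the expression filter only by differing. Of the 60 tested members, 51 were above the filter's level of 0.709 CPM in every library of all 3 groups. Over these 51, si025 gave 23 higher and 13 lower (45.1% and 25.5%, beside 32.9% and 28.8% of all tested genes). For si033 there were 9 higher and 21 lower (17.6% and 41.2%, beside 26.9% and 27.8%). The direct comparison gave 30 and 10 (58.8% and 19.6%, beside 31.2% and 29.7%). At least 2-fold changes over these 51 were 12 upward and 2 downward with si025 (23.5% and 3.92%, beside 5.51% and 1.51% of all tested genes). They were 0 and 6 with si033 (0% and 11.8%, beside 3.06% and 2.08%), and 15 and 2 between the siRNAs (29.4% and 3.92%, beside 5.56% and 2.14%). With si033, both members with a 2-fold increase and 4 of the 10 with a 2-fold decrease were thus among the other 9. The remaining 9 were *ITGB6*, *LAMA4*, *COL5A1*, *COL17A1* and *ITGB4*, above that level in 1 group, *FBN2* and *ITGA5*, above it in 2 groups, and *ITGA4* and *SPARC*, which reached it in some libraries of a group.

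**Figure D1:**
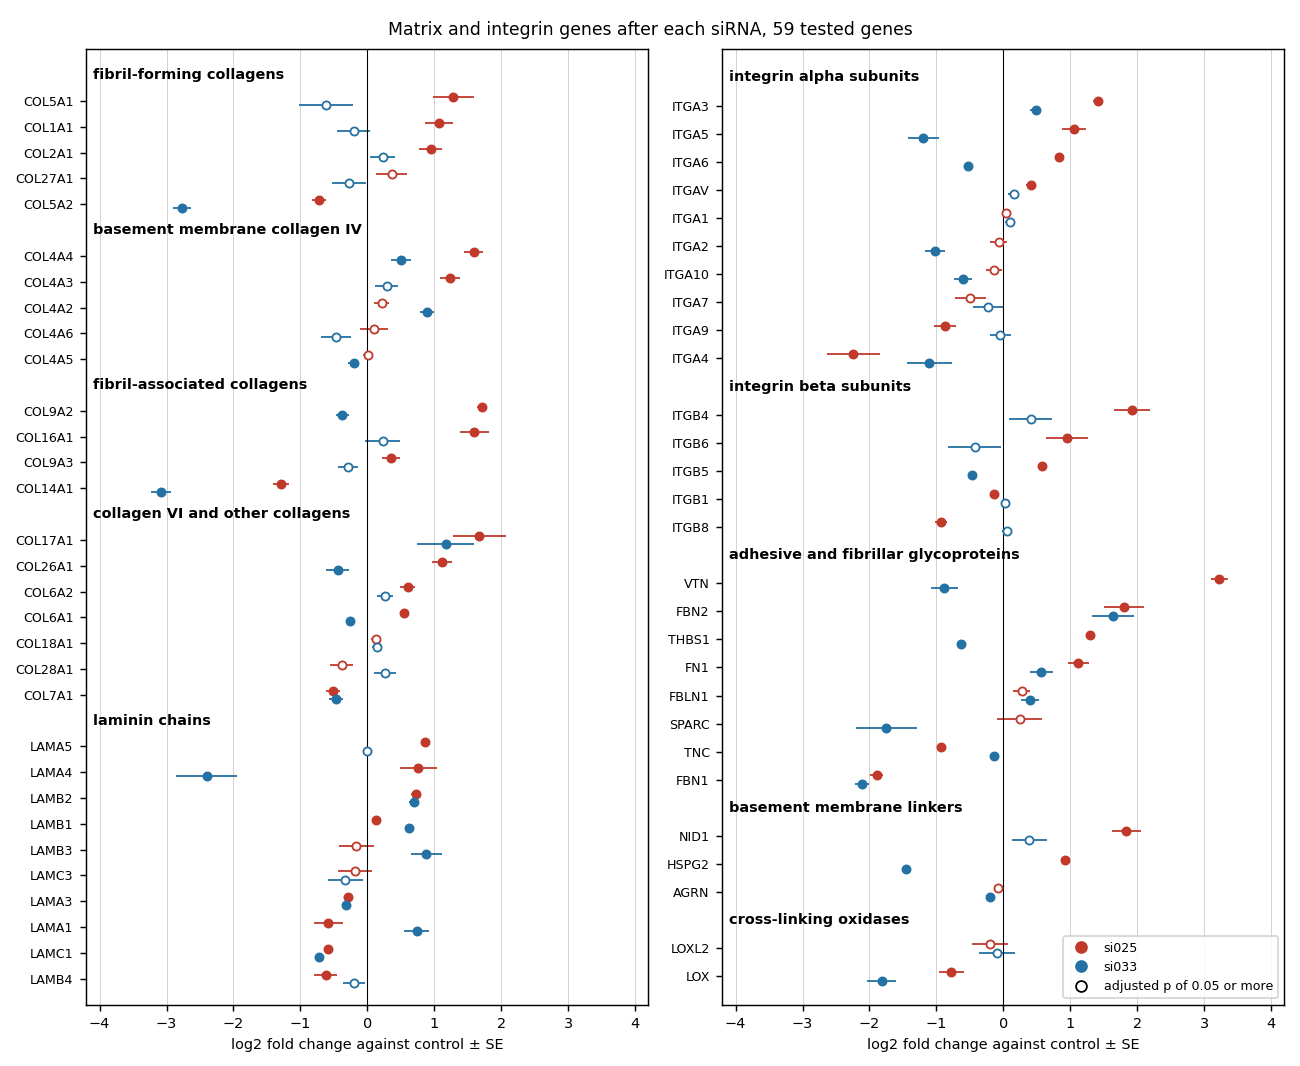
Log2 fold change against control (horizontal axis, ± SE) of 59 tested members, in rows by role, with si025 in red and si033 in blue. Filled points have an adjusted p value under 0.05, and points right of the vertical line are higher than control. *VTN* lies furthest right with si025 (3.23) and *COL14A1* furthest left with si033 (-3.09).

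Levels of different genes were compared as CPM per kb of exon length. Over all 9 libraries 11 members averaged more than 10 CPM per kb, 21 lay from 1 to 10, and 58 were at or under 1. In control cells the order was led by *THBS1* at 100.1 ± 4.36 CPM per kb (SD, n = 3), *LAMB1* at 93.7 ± 1.54, *ITGB1* at 64.3 ± 1.66 and *LAMC1* at 58.7 ± 2.36. Next came *AGRN* at 23.4 CPM per kb, *HSPG2* at 21.3 and *ITGA6* at 20.4, neighbours whose libraries overlapped, then *LAMA3* at 17.6, *TNC* at 14.9, *ITGB5* at 11.9 and *ITGAV* at 10.9, of which the last 2 overlapped. With si025 *THBS1* stood further ahead of the rest, at 246 CPM per kb, and *HSPG2* reached 40.4, level with *LAMC1*, whose libraries it overlapped. With si033 *LAMB1* took the first place, at 144.5 CPM per kb, ahead of *ITGB1* and *THBS1*, whose libraries overlapped. The most abundant members were thus a thrombospondin, chains of laminin, subunits of laminin and vitronectin receptors, and basement membrane proteoglycans. No fibril-forming collagen exceeded 2 CPM per kb in any library.

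**Figure D2:**
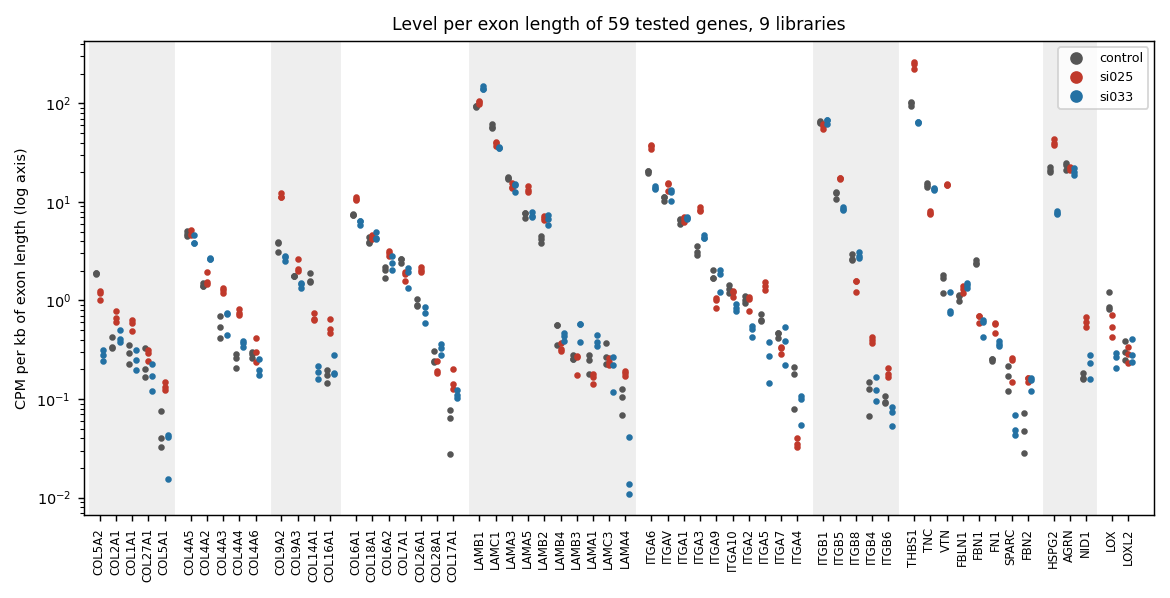
Level of 59 tested members as CPM per kb of exon length (vertical log axis) in every library, grouped by role in shaded and unshaded bands and ordered by mean level within a role. Points are libraries of control (grey), si025 (red) and si033 (blue). *THBS1* and *LAMB1* are the 2 highest genes by mean level, and the fibril-forming collagens at the far left all lie under 2 CPM per kb.

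The members together took 3589 to 3751 CPM of the control libraries, 4853 to 5378 CPM with si025 and 3158 to 3270 CPM with si033. Most of that difference was *THBS1*, which made up 19.2% to 20.02% of the members' summed CPM in control, 33.6% to 35.6% with si025 and 14.3% to 14.6% with si033. Without it, the sums were 2900 to 3000, 3223 to 3484 and 2696 to 2803 CPM, and the groups still did not overlap. The summed levels of the luminal and of the fibroblast markers had the same order of groups as the members' sum, and their part in it was not tested.

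Among the adhesive glycoproteins, vitronectin and thrombospondin 1 were both higher with si025 than with si033. *VTN* (chromosome 17, 28367277 to 28370352, minus strand, hg38) encodes vitronectin, a plasma and matrix protein bound by integrins that contain the alpha V subunit. Its level was 2.01, 3.04 and 2.82 CPM in control, 25.5, 25 and 25.2 CPM with si025 and 2.06, 1.32 and 1.24 CPM with si033. The si025 libraries stood far above both other groups, whereas the control and si033 ranges overlapped. The log2 fold change of *VTN* was 3.23 (SE 0.13, adjusted *p* = 1.22e-15) with si025 and -0.88 (SE 0.20, adjusted *p* = 8.01e-04) with si033, and si025 exceeded si033 by 4.11 (SE 0.14, adjusted *p* = 4.26e-17).

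*THBS1* (chromosome 15, 39581079 to 39598918, plus strand, hg38) encodes thrombospondin 1, a secreted glycoprotein that inhibits angiogenesis and activates latent TGF-beta. It was measured at 751, 733 and 689.7 CPM in control, 1895, 1629.5 and 1819 CPM with si025 and 467, 462 and 468 CPM with si033. All 3 groups were separate, with si033 lowest and si025 highest. The changes were 1.3 (SE 0.05, adjusted *p* = 5.07e-16) with si025 and -0.64 (SE 0.05, adjusted *p* = 1.28e-10) with si033, and the difference between the siRNAs was 1.94 (SE 0.05, adjusted *p* = 2.54e-19).

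The promoters of these genes and of *HSPG2*, the 3 members with the smallest adjusted *p* values between the siRNAs, are shown to give the sequence context of the changes. RefSeq promoter windows of 250 bases before and 50 bases after a transcription start (build GRCh38.p14) were matched for 67 of the 90 members, and the 250 upstream bases are printed 5′ to 3′ on the strand of the gene. Capitals mark matches on either strand to any of 5 motifs: the GC box GGGCGG, the TATA box TATAAA, the E-box CACGTG, the AP-1 site TGANTCA and the androgen response half-site AGAACA. The *THBS1* window is chr15:39580829-39581078 on the plus strand, the *HSPG2* window chr1:21937311-21937560 and the *VTN* window chr17:28370308-28370557, both on the minus strand.
THBS1: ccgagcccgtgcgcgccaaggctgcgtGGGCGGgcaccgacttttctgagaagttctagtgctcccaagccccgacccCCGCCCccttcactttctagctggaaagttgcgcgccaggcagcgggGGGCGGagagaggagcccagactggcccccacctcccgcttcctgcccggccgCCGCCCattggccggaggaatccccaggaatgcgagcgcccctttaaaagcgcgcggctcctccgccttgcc
HSPG2: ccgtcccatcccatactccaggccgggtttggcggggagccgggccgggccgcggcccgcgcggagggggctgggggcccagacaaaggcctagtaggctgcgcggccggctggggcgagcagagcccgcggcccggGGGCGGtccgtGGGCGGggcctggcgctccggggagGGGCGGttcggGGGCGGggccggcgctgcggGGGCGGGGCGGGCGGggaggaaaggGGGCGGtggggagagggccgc
VTN: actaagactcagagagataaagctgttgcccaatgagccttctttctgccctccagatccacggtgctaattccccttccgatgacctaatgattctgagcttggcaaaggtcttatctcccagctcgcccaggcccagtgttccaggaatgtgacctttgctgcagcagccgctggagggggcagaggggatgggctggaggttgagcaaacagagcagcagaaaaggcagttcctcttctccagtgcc
The *THBS1* window held 4 GC boxes and the *HSPG2* window 10, of which 2 lay in the 50 bases after the start, and overlapping matches are merged in the capitals. The *VTN* window had no match to any of the 5. Its printed bases reach down to 28370308, inside the counted extent of the gene, which ends at 28370352. Over all 34943 distinct windows 44.9% held a GC box, and 37 of the 57 windows of tested members did (64.9%). The E-box was in 3.51% of the members' windows and 7.23% of all windows, the TATA box in 10.5% and 11.6%, the AP-1 site in 5.26% and 7.72%, and the half-site in 19.3% and 14.8%. These are matches of letters, described without a test.

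**Figure D3:**
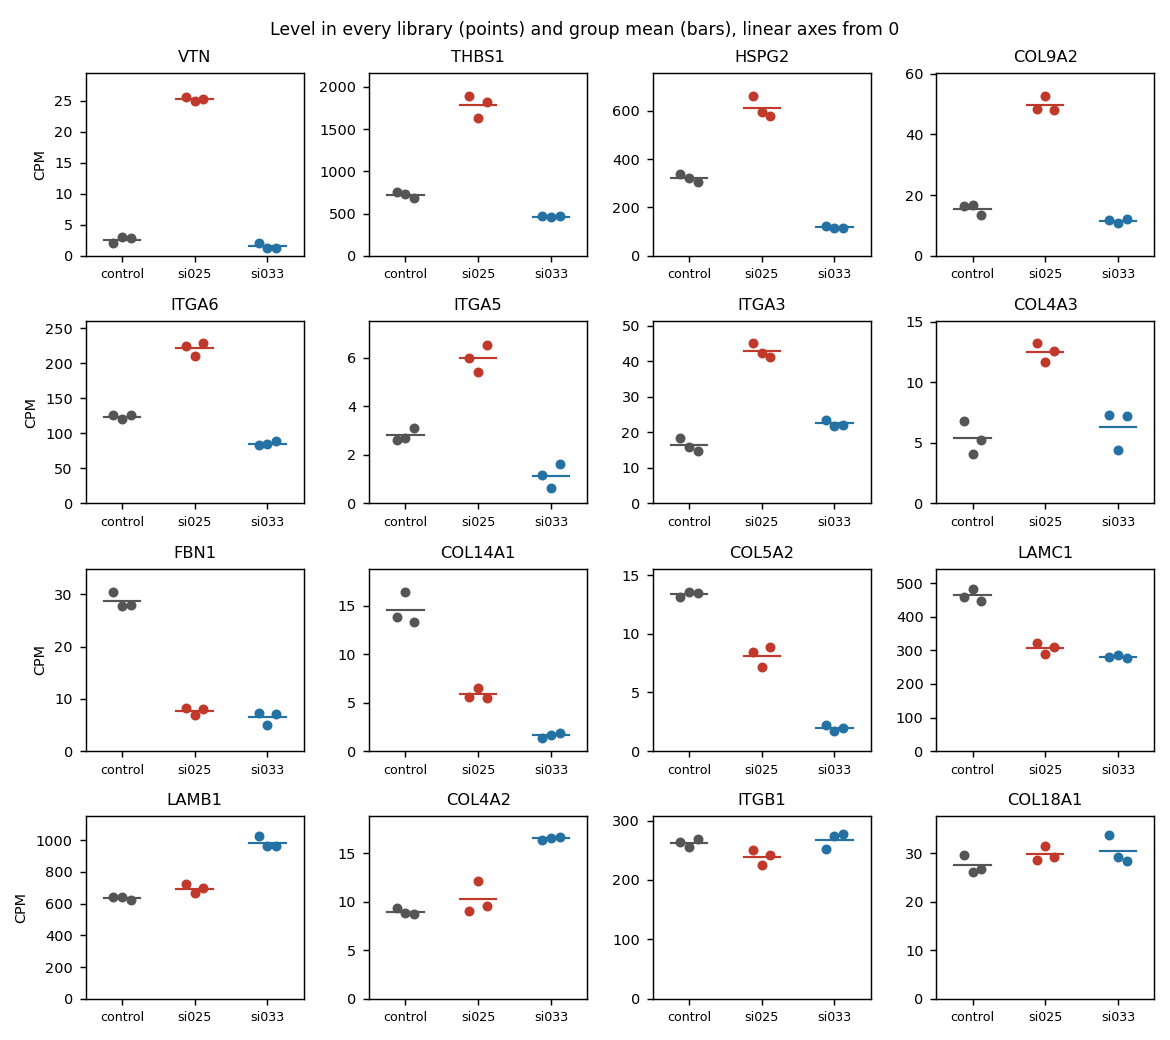
CPM (vertical axes, linear and starting at 0) of 16 members in every library, with control in grey, si025 in red and si033 in blue, and bars at group means. The upper 2 rows hold genes whose si025 libraries lie above both other groups, and the third row holds genes whose siRNA libraries all lie below control.

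Fibronectin and the fibrillins followed other patterns. *FN1*, which encodes fibronectin, the ligand of the integrin alpha 5 beta 1, was low in these cells, at 2.36, 2.32 and 2.24 CPM in control, 5.45, 5.36 and 4.33 CPM with si025 and 3.3, 3.17 and 3.59 CPM with si033. Every siRNA library lay above every control library, and si025 lay above si033. The increases were 1.12 (SE 0.16, adjusted *p* = 2.69e-06) and 0.57 (SE 0.17, adjusted *p* = 0.00817), the second of which was not called without si033 replicate 3 (adjusted *p* = 0.0564), and the siRNAs differed by 0.56 (SE 0.15, adjusted *p* = 0.00281).

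*FBN1* (chromosome 15, 48408306 to 48645788, minus strand, hg38) encodes fibrillin 1, the backbone of microfibrils that hold elastin and latent TGF-beta. It was counted at 30.5, 27.7 and 27.9 CPM in control, 8.18, 6.85 and 8.14 CPM with si025 and 7.33, 5.03 and 7.04 CPM with si033. Both siRNAs gave levels far below control, and their own ranges overlapped. The log2 fold changes were -1.89 (SE 0.10, adjusted *p* = 1.27e-13) with si025 and -2.12 (SE 0.10, adjusted *p* = 4.49e-14) with si033, while the difference between the siRNAs, 0.22 (SE 0.12, adjusted *p* = 0.117), did not pass the test and had an approximate 95% interval of -0.03 to 0.47. It was called without si025 replicate 2 (adjusted *p* = 0.0459). The related *FBN2* was near the limit of the filter in control and moved the opposite way, at 0.524, 0.797 and 0.309 CPM in control, 1.79, 1.64 and 1.81 CPM with si025 and 1.81, 1.7 and 1.35 CPM with si033. Its changes were 1.81 (SE 0.30, adjusted *p* = 1.74e-05) and 1.64 (SE 0.31, adjusted *p* = 1.04e-04), with a difference between the siRNAs of 0.16 (SE 0.23, adjusted *p* = 0.565), which was not called.

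*TNC* encodes tenascin C, a glycoprotein of remodelling stroma that modulates cell attachment. Its level was 135, 129.5 and 144 CPM in control, 74.2, 69 and 70.8 CPM with si025 and 120.0, 125 and 125 CPM with si033. The si025 libraries lay far below the others and the si033 libraries lay just under control. The changes were -0.94 (SE 0.05, adjusted *p* = 2.74e-13) and -0.14 (SE 0.05, adjusted *p* = 0.0186), the latter not called under upper quartile scaling, or without si033 replicate 1 or control replicate 3 (adjusted *p* up to 0.181), and si025 minus si033 was -0.80 (SE 0.05, adjusted *p* = 3.60e-12). *SPARC*, a collagen-binding secreted protein also called osteonectin, was close to the detection limit, with 0.611, 0.435 and 0.773 CPM in control, 0.934, 0.893 and 0.531 CPM with si025 and 0.247, 0.155 and 0.173 CPM with si033. The si033 libraries lay below both other groups. Its fold change was -1.75 (SE 0.46, adjusted *p* = 0.00238) with si033 and 0.24 (SE 0.33, adjusted *p* = 0.568) with si025, which was not called, and the siRNAs differed by 1.99 (SE 0.43, adjusted *p* = 3.79e-04). *FBLN1*, which encodes fibulin 1, ranged from 4.83 to 7.25 CPM over the 9 libraries, and *VCAN*, which encodes versican, had at most 3 counts in any library.

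Of the basement membrane linkers, perlecan differed most between the siRNAs. *HSPG2* (chromosome 1, 21822232 to 21937297, minus strand, hg38) encodes perlecan, a large heparan sulphate proteoglycan that binds laminin networks, collagen IV and growth factors. It was measured at 338, 321 and 305 CPM in control, 659.6, 595 and 577 CPM with si025 and 123, 114 and 116 CPM with si033. The 3 groups did not overlap, and the lowest si025 library lay far above the highest si033 library. The changes were 0.93 (SE 0.05, adjusted *p* = 3.31e-13) with si025 and -1.45 (SE 0.05, adjusted *p* = 6.26e-16) with si033, and the difference of 2.38 (SE 0.05, adjusted *p* = 4.82e-20) had the smallest adjusted *p* value of any member in the direct comparison. *AGRN*, which encodes agrin, another heparan sulphate proteoglycan, moved little, at 184, 177 and 158 CPM in control, 169, 165 and 157 CPM with si025 and 165, 138 and 149.9 CPM with si033. The 3 ranges overlapped one another. Its fold changes were -0.08 (SE 0.06, adjusted *p* = 0.266), not called, and -0.19 (SE 0.06, adjusted *p* = 0.00905), which was not called without si033 replicate 2 or control replicates 1 or 2 (adjusted *p* up to 0.092), and the siRNAs did not pass the test between them (0.12 with SE 0.06 and adjusted *p* = 0.0997, 95% interval -0.01 to 0.24). That difference was called without the filter, or without si033 replicate 1 (adjusted *p* down to 0.0194). *NID1*, which encodes nidogen 1, the bridge between laminin and collagen IV, was rare, at 0.96, 0.942 and 1.08 CPM in control, 3.19, 3.57 and 4.02 CPM with si025 and 1.65, 0.928 and 1.38 CPM with si033. It rose with si025 by 1.84 (SE 0.21, adjusted *p* = 1.07e-07). With si033 the value was 0.39 (SE 0.26, adjusted *p* = 0.211), which was not called, and the siRNAs differed by 1.45 (SE 0.20, adjusted *p* = 1.46e-06).

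Of 12 laminin chains 11 were tested, with 5 higher and 4 lower with si025 (45.5% and 36.4%, beside 32.9% and 28.8% of all tested genes) and 4 higher and 4 lower with si033 (36.4% each, beside 26.9% and 27.8%). These shares rest on few genes. *LAMB1* and *LAMC1*, the beta 1 and gamma 1 chains found in most laminin trimers, were the most abundant chains and moved apart. *LAMB1* (chromosome 7, 107923799 to 108003359, minus strand, hg38) was measured at 644, 642 and 625 CPM in control, 722, 664 and 696 CPM with si025 and 1026, 961 and 961 CPM with si033. The si033 libraries stood above all others. The change was 0.63 (SE 0.04, adjusted *p* = 1.40e-11) with si033 and 0.12 (SE 0.04, adjusted *p* = 0.0132) with si025, and the latter was not called with gene length offsets, or without si025 replicate 1 or control replicate 3 (adjusted *p* up to 0.0706). The siRNAs differed by -0.50 (SE 0.04, adjusted *p* = 3.78e-10).

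*LAMC1* was measured at 459, 484 and 447 CPM in control, 321, 289.6 and 310.4 CPM with si025 and 279, 286 and 276 CPM with si033. Both siRNAs gave levels below every control library. The log2 fold changes were -0.59 (SE 0.04, adjusted *p* = 9.00e-11) with si025 and -0.73 (SE 0.05, adjusted *p* = 4.59e-12) with si033, and the small difference between the siRNAs, 0.13 (SE 0.05, adjusted *p* = 0.0151), was not called with gene length offsets, or without si025 replicates 1 or 3 or si033 replicate 3 (adjusted *p* up to 0.0792). As a ratio of CPM per kb, *LAMB1* over *LAMC1* was therefore 1.6 ± 0.0487 in control, 2.62 ± 0.0333 with si025 and 4.07 ± 0.187 with si033 (mean ± SD, n = 3). The ratio was higher than control in every siRNA library and highest with si033. It is given as a description with no test of its own.

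The alpha chains, which set the receptor preference of a laminin, changed one by one. *LAMA3*, the alpha chain of laminin-332, was the most abundant of them per length, at 205, 199 and 207 CPM in control, 179, 160.0 and 164 CPM with si025 and 169.9, 144 and 175 CPM with si033. Both siRNA groups lay below control and overlapped each other. The changes were -0.28 (SE 0.06, adjusted *p* = 1.91e-04) and -0.32 (SE 0.06, adjusted *p* = 7.24e-05), and the difference between the siRNAs, 0.03 (SE 0.06, adjusted *p* = 0.632), did not pass the test. *LAMA5*, the alpha chain of laminin-511, was measured at 89, 88.8 and 80.3 CPM in control, 166, 155 and 147 CPM with si025 and 91.1, 81.5 and 84.3 CPM with si033. It was higher in every si025 library than in any other library. The change was 0.86 (SE 0.06, adjusted *p* = 6.42e-12) with si025 and -0.00 (SE 0.06, adjusted *p* = 0.977) with si033, which was not called, and the siRNAs differed by 0.86 (SE 0.06, adjusted *p* = 4.83e-12). The ratio of *LAMA5* to *LAMA3* per kb was 0.422 ± 0.0311 in control, 0.927 ± 0.0355 with si025 and 0.526 ± 0.0422 with si033 (mean ± SD, n = 3).

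The rarer alpha chains *LAMA1* and *LAMA4* moved in opposite senses. *LAMA1* was counted at 1.75, 2.75 and 2.43 CPM in control, 1.64, 1.74 and 1.37 CPM with si025 and 3.38, 3.71 and 4.38 CPM with si033, with si025 below and si033 above the control range. Its changes were -0.58 (SE 0.21, adjusted *p* = 0.0216), not called with DESeq2, or without si025 replicate 3 or control replicates 2 or 3 (adjusted *p* up to 0.108), and 0.74 (SE 0.19, adjusted *p* = 0.00181), and the siRNAs differed by -1.32 (SE 0.20, adjusted *p* = 3.81e-06). *LAMA4*, an alpha chain known from vessels and mesenchyme, was counted at 0.524, 0.797 and 0.966 CPM in control, 1.4, 1.29 and 1.46 CPM with si025 and 0.0824, 0.309 and 0.104 CPM with si033. The si033 libraries held 1, 4 and 3 counts of it, close to the limit of detection. The fitted changes were 0.76 (SE 0.28, adjusted *p* = 0.0214), not called with DESeq2, or without si025 replicate 3 or control replicates 1 or 2 (adjusted *p* up to 0.108), and -2.4 (SE 0.45, adjusted *p* = 1.05e-04), and the siRNAs differed by 3.16 (SE 0.40, adjusted *p* = 3.87e-07). *LAMA2* had at most 4 counts in any library and was not tested.

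The remaining beta and gamma chains were less abundant. *LAMB2* was raised to a like level by both siRNAs, at 26.4, 24.6 and 22 CPM in control, 41.9, 39.9 and 37.9 CPM with si025 and 42.8, 34.2 and 39.3 CPM with si033. Its changes were 0.73 (SE 0.08, adjusted *p* = 2.65e-08) and 0.70 (SE 0.08, adjusted *p* = 9.91e-08), and the difference of 0.03 (SE 0.07, adjusted *p* = 0.705) was not called, with a 95% interval of -0.12 to 0.18. *LAMB3*, the beta chain that joins *LAMA3*, was counted at 1.31, 1.45 and 1.31 CPM in control, 1.4, 0.893 and 1.37 CPM with si025 and 2.97, 2.94 and 1.97 CPM with si033, and it was higher with si033 alone. Its changes were -0.16 (SE 0.26, adjusted *p* = 0.611), not called, and 0.88 (SE 0.23, adjusted *p* = 0.00279), with a difference of -1.04 (SE 0.23, adjusted *p* = 5.17e-04). *LAMB4* and *LAMC3* ranged from 2.78 to 5.07 CPM and from 0.742 to 2.36 CPM over the libraries.

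**Figure D4:**
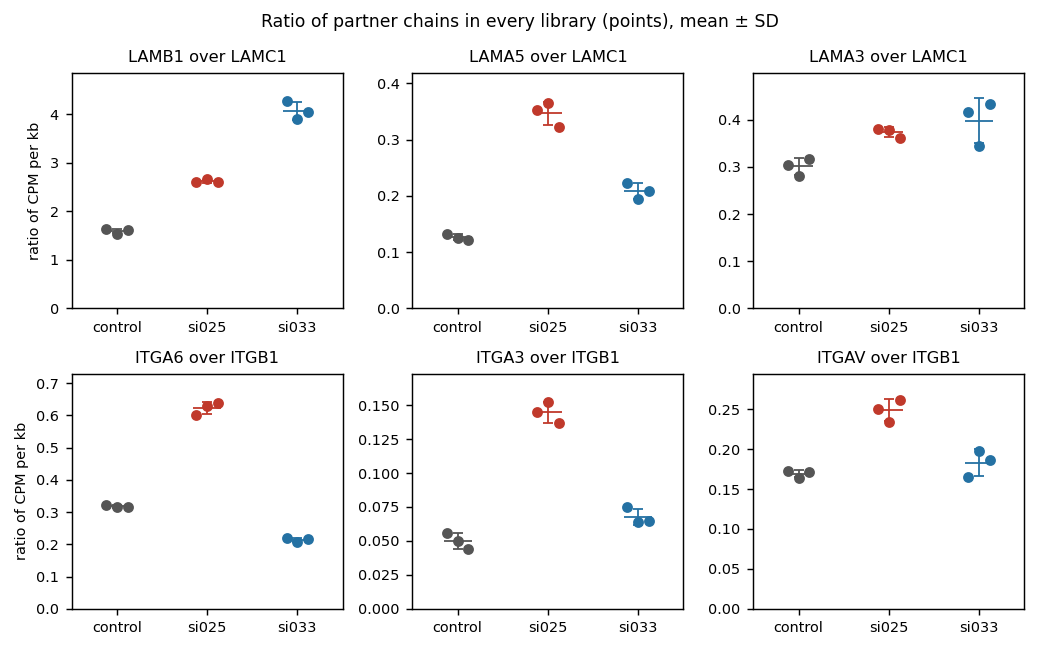
Ratio of CPM per kb (vertical axes from 0) of partner chains in each library, with group mean ± SD (n = 3), for 3 laminin pairs and 3 integrin pairs. *LAMB1* over *LAMC1* is highest with si033 (4.07 ± 0.187) and *ITGA6* over *ITGB1* is highest with si025 (0.623 ± 0.0187).

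Collagen IV, the network-forming collagen of basement membranes, is encoded by 6 genes that lie in 3 head-to-head pairs, each pair read outward from a shared stretch. *COL4A3* and *COL4A4* lie on chromosome 2, with the RefSeq starts of their promoter windows 419 bases apart. *COL4A2* and *COL4A1* lie on chromosome 13 (127 bases apart) and *COL4A5* and *COL4A6* on chromosome X (380 bases apart). In the annotation of the counts, *COL4A3* and *COL4A4* are 5 bases apart, so most of the *COL4A3* sequence printed below lies within their counted extents. Upstream sequence of 2 pairs is printed because both genes of the first rose with si025, and of the second *COL4A1* was hardly counted. For *COL4A3* it is chr2:227164374-227164623 on the plus strand, with the 82 bases that also belong to the *COL4A4* window in capitals. For *COL4A2* it is chr13:110307158-110307283, also on the plus strand, the whole stretch between its start and that of *COL4A1*, all of which lies in both windows.
COL4A3: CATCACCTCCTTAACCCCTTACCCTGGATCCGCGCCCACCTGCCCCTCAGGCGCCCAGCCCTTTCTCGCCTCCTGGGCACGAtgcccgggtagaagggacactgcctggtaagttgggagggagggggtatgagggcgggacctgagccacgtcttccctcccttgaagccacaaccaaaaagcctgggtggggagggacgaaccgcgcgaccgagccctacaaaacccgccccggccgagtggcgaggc
COL4A2: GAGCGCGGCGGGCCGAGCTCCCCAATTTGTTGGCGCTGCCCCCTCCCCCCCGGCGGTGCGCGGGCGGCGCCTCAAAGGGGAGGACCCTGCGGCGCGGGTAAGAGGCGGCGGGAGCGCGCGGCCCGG

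*COL4A3* and *COL4A4* encode chains that assemble with the alpha 5 chain. *COL4A3* was counted at 6.81, 4.06 and 5.21 CPM in control, 13.2, 11.7 and 12.6 CPM with si025 and 7.33, 4.41 and 7.18 CPM with si033. For *COL4A4* the level was 3.67, 2.61 and 3.32 CPM in control, 10.4, 9.08 and 9.55 CPM with si025 and 4.7, 4.87 and 4.24 CPM with si033. For both genes every si025 library was above every other library. With si025 the changes were 1.24 (SE 0.15, adjusted *p* = 2.81e-07) and 1.59 (SE 0.14, adjusted *p* = 9.56e-10). With si033 they were 0.29 (SE 0.17, adjusted *p* = 0.155), not called but called without si033 replicate 2 or control replicate 1 (adjusted *p* down to 0.0175), and 0.50 (SE 0.15, adjusted *p* = 0.00845). The siRNAs differed by 0.95 (SE 0.15, adjusted *p* = 6.96e-06) and 1.08 (SE 0.13, adjusted *p* = 1.66e-07).

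*COL4A2* encodes the alpha 2 chain, which joins alpha 1 chains in the common collagen IV trimer. It was counted at 9.34, 8.84 and 8.77 CPM in control, 9.11, 12.2 and 9.55 CPM with si025 and 16.4, 16.6 and 16.7 CPM with si033. The si033 libraries were higher than all others. The change was 0.89 (SE 0.10, adjusted *p* = 9.91e-08) with si033 and 0.21 (SE 0.11, adjusted *p* = 0.0875) with si025, not called but called without si025 replicate 1 (adjusted *p* = 0.0393), and si025 minus si033 was -0.68 (SE 0.10, adjusted *p* = 2.14e-06). Its partner *COL4A1*, which starts 127 bases away, had 0 to 4 counts per library and 9 over all 9 libraries. The remaining pair moved little. *COL4A5* was counted at 34.4, 32.8 and 36.6 CPM in control, 34, 33.4 and 37.4 CPM with si025 and 27.7, 27.5 and 33.5 CPM with si033. For *COL4A6* the level was 2.18, 2.39 and 2.55 CPM in control, 3.5, 2.53 and 1.99 CPM with si025 and 1.48, 2.17 and 1.66 CPM with si033. The groups of both genes overlapped or lay close together. For *COL4A5* the si033 change of -0.21 (SE 0.08, adjusted *p* = 0.0251) was not called under upper quartile scaling, or without si033 replicates 1 or 2 or control replicates 1 or 3 (adjusted *p* up to 0.181), the difference between the siRNAs of 0.21 (SE 0.07, adjusted *p* = 0.0162) was not called without si025 replicate 3 or si033 replicates 1 or 2 (adjusted *p* up to 0.114), and the si025 value of 0.01 (SE 0.07, adjusted *p* = 0.924) was not called. For *COL4A6* neither siRNA was called against control (0.10 with SE 0.21 and adjusted *p* = 0.712 and -0.46 with SE 0.22 and adjusted *p* = 0.0868), and the difference of 0.56 (SE 0.22, adjusted *p* = 0.0321) was not called with DESeq2, or without si025 replicates 1 or 2 or si033 replicates 1 or 3 (adjusted *p* up to 0.183).

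Fibril-forming collagens, which build the cables of interstitial matrix, were rare, with 5 of 11 tested. *COL5A2*, a chain of the collagen V that starts and regulates fibrils, had the highest level per length in control and with si025 but not with si033, at 13.1, 13.6 and 13.5 CPM in control, 8.41, 7.15 and 8.84 CPM with si025 and 2.22, 1.7 and 1.97 CPM with si033. The 3 groups were separate, with both siRNAs below control and si033 lowest. The log2 fold changes were -0.72 (SE 0.11, adjusted *p* = 3.48e-06) and -2.77 (SE 0.14, adjusted *p* = 8.16e-14), and the siRNAs differed by 2.05 (SE 0.14, adjusted *p* = 2.48e-11). Its partner chain *COL5A1* was counted at 0.349, 0.435 and 0.811 CPM in control, 1.32, 1.44 and 1.59 CPM with si025 and 0.165, 0.464 and 0.449 CPM with si033, highest in the si025 libraries. Its changes were 1.29 (SE 0.31, adjusted *p* = 8.72e-04) and -0.62 (SE 0.41, adjusted *p* = 0.205), the second not called, with a difference of 1.91 (SE 0.33, adjusted *p* = 3.16e-05). The fitted si025 changes of the pair had opposite signs. *COL5A1* was near the floor, with 4, 6 and 21 counts in control. It was above the filter's level in every library of si025 alone, so its increase was favoured by the filter.

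*COL1A1*, a chain of collagen I, was counted at 2.1, 1.74 and 1.35 CPM in control, 2.88, 3.52 and 3.8 CPM with si025 and 1.48, 1.86 and 1.17 CPM with si033, while its partner *COL1A2* had 2 counts over all libraries. *COL1A1* was higher in every si025 library than in the others. Its changes were 1.07 (SE 0.21, adjusted *p* = 1.17e-04) and -0.20 (SE 0.25, adjusted *p* = 0.503), the second not called, with a difference of 1.27 (SE 0.21, adjusted *p* = 1.86e-05). *COL2A1*, the collagen of cartilage, was counted at 2.36, 2.97 and 2.32 CPM in control, 4.28, 5.51 and 4.69 CPM with si025 and 3.54, 2.86 and 2.69 CPM with si033, again highest with si025. Its changes were 0.95 (SE 0.17, adjusted *p* = 4.47e-05) and 0.23 (SE 0.19, adjusted *p* = 0.304), the second not called, with a difference of 0.72 (SE 0.16, adjusted *p* = 6.72e-04). *COL27A1* ranged from 1.08 to 2.97 CPM. *COL3A1*, which lies next to *COL5A2* on chromosome 2, had 25 counts over all libraries, 17 of them in control.

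Fibril-associated collagens decorate fibrils without forming them, and 4 of 10 were tested. *COL14A1*, the collagen of this kind that fell furthest, was counted at 13.8, 16.4 and 13.4 CPM in control, 5.61, 6.5 and 5.53 CPM with si025 and 1.4, 1.62 and 1.86 CPM with si033. The groups were separate and ordered as for *COL5A2*. The log2 fold changes were -1.29 (SE 0.12, adjusted *p* = 2.08e-09) with si025 and -3.09 (SE 0.15, adjusted *p* = 4.54e-14) with si033, and the siRNAs differed by 1.8 (SE 0.17, adjusted *p* = 2.56e-09). *COL9A2*, a collagen IX chain, was counted at 16.3, 16.8 and 13.4 CPM in control, 48.4, 52.6 and 48 CPM with si025 and 11.8, 10.8 and 12.2 CPM with si033. The si025 libraries stood well above control, and si033 lay just below it. The changes were 1.71 (SE 0.08, adjusted *p* = 1.09e-14) and -0.37 (SE 0.09, adjusted *p* = 0.00184), with a difference of 2.09 (SE 0.08, adjusted *p* = 3.08e-16).

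The partner chain *COL9A3* moved less, at 4.71, 4.71 and 4.75 CPM in control, 5.3, 7.1 and 5.62 CPM with si025 and 3.96, 3.56 and 4.0 CPM with si033, in the same order of groups. Its changes were 0.35 (SE 0.14, adjusted *p* = 0.0326), not called with DESeq2, or without si025 replicate 2 or control replicates 1, 2 or 3 (adjusted *p* up to 0.231), and -0.29 (SE 0.15, adjusted *p* = 0.112), which was not called, with a difference of 0.64 (SE 0.14, adjusted *p* = 5.18e-04). The third chain, *COL9A1*, had at most 5 counts in any library. *COL16A1* was counted at 1.13, 0.942 and 1.27 CPM in control, 4.28, 3.37 and 3.05 CPM with si025 and 1.81, 1.16 and 1.21 CPM with si033, with every si025 library above all others. Its changes were 1.6 (SE 0.22, adjusted *p* = 1.26e-06) and 0.23 (SE 0.26, adjusted *p* = 0.499), the second not called, with a difference of 1.37 (SE 0.21, adjusted *p* = 6.55e-06).

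Of 17 other collagens 7 were tested. Collagen VI forms beaded microfilaments from 3 different chains. *COL6A1* was counted at 31.3, 30.8 and 32.1 CPM in control, 45.8, 47.6 and 44.4 CPM with si025 and 26.9, 24.5 and 27 CPM with si033, its groups being separate with si025 highest. Its changes were 0.55 (SE 0.06, adjusted *p* = 2.76e-08) and -0.26 (SE 0.06, adjusted *p* = 0.00122), with a difference of 0.81 (SE 0.06, adjusted *p* = 4.98e-11). *COL6A2*, which lies 93021 bases beyond it on chromosome 21, was counted at 10.4, 7.97 and 9.66 CPM in control, 14.2, 15.1 and 13.4 CPM with si025 and 13.4, 11.4 and 9.77 CPM with si033. Its changes were 0.61 (SE 0.11, adjusted *p* = 6.29e-05) and 0.26 (SE 0.12, adjusted *p* = 0.0642), the second not called but called under upper quartile scaling, or without the filter, or without si033 replicate 3 or control replicate 1 (adjusted *p* down to 0.0107), and the difference of 0.35 (SE 0.11, adjusted *p* = 0.00872) was not called without si033 replicate 3 (adjusted *p* = 0.156). The third chain, *COL6A3*, had 10 counts over all 9 libraries.

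*COL18A1*, the basement membrane collagen from which endostatin is cut, was counted at 29.8, 26.2 and 26.7 CPM in control, 28.7, 31.6 and 29.2 CPM with si025 and 33.9, 29.2 and 28.4 CPM with si033, with overlapping groups. Neither siRNA was called (0.13 with SE 0.07 and adjusted *p* = 0.136 and 0.14 with SE 0.07 and adjusted *p* = 0.118), and the difference of -0.01 (SE 0.07, adjusted *p* = 0.903) had a 95% interval of -0.16 to 0.14. The si033 change was called without control replicate 1 (adjusted *p* = 0.0482). *COL26A1* was counted at 3.14, 3.19 and 3.71 CPM in control, 7.01, 7.79 and 7.25 CPM with si025 and 2.64, 3.09 and 2.11 CPM with si033, with si025 above all other libraries. Its changes were 1.11 (SE 0.15, adjusted *p* = 8.13e-07) and -0.44 (SE 0.18, adjusted *p* = 0.0368), the second not called under upper quartile scaling, or with DESeq2, or without si033 replicates 1 or 3 or control replicates 2 or 3 (adjusted *p* up to 0.317), with a difference of 1.55 (SE 0.16, adjusted *p* = 9.78e-09). *COL17A1*, a transmembrane collagen of hemidesmosomes, was near the limit of detection, at 0.436, 0.362 and 0.155 CPM in control, 0.701, 1.14 and 0.796 CPM with si025 and 0.577, 0.696 and 0.621 CPM with si033. Both siRNA groups lay above control. Its changes were 1.67 (SE 0.39, adjusted *p* = 7.61e-04) and 1.17 (SE 0.43, adjusted *p* = 0.0237), the second not called with DESeq2, or without si033 replicates 2 or 3 or control replicate 3 (adjusted *p* up to 0.264), and the difference of 0.51 (SE 0.32, adjusted *p* = 0.18) was not called. *COL7A1*, the anchoring fibril collagen, ranged from 12.9 to 25.6 CPM, and *COL28A1* from 2.65 to 5.27 CPM.

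Integrin alpha subunits decide much of the ligand choice of the receptor, and 10 of 12 were tested. *ITGA6*, the laminin-binding alpha 6 subunit, was the most abundant, at 126, 119.9 and 127 CPM in control, 224, 209.8 and 229 CPM with si025 and 82.9, 84.8 and 88.7 CPM with si033. The 3 groups were separate, with si025 highest and si033 lowest. The changes were 0.83 (SE 0.05, adjusted *p* = 6.45e-13) and -0.53 (SE 0.05, adjusted *p* = 4.75e-09), with a difference of 1.37 (SE 0.05, adjusted *p* = 1.03e-16). *ITGA3*, which also binds laminins, was counted at 18.3, 15.9 and 14.8 CPM in control, 45.2, 42.3 and 41.2 CPM with si025 and 23.5, 21.9 and 22.1 CPM with si033. Both siRNAs lay above control and si025 above si033. The changes were 1.41 (SE 0.07, adjusted *p* = 1.21e-13) and 0.48 (SE 0.08, adjusted *p* = 1.89e-05), with a difference of 0.93 (SE 0.07, adjusted *p* = 4.59e-11).

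*ITGA5*, the fibronectin receptor subunit, was counted at 2.62, 2.68 and 3.13 CPM in control, 6.0, 5.41 and 6.54 CPM with si025 and 1.15, 0.619 and 1.62 CPM with si033, in separate groups with the order of *ITGA6*. Its changes were 1.06 (SE 0.18, adjusted *p* = 2.20e-05) and -1.19 (SE 0.24, adjusted *p* = 1.68e-04), with a difference of 2.25 (SE 0.21, adjusted *p* = 2.50e-09). *ITGAV*, which forms the vitronectin receptors, was counted at 80.2, 74.1 and 81.3 CPM in control, 111, 92.7 and 112 CPM with si025 and 73.8, 96.1 and 91.4 CPM with si033. It was higher than control in every si025 library, and si033 overlapped both. The changes were 0.42 (SE 0.08, adjusted *p* = 5.84e-05) and 0.15 (SE 0.08, adjusted *p* = 0.10), the second not called but called under upper quartile scaling, or without the filter, or without si025 replicate 2 or si033 replicate 1 (adjusted *p* down to 0.00316), and the difference of 0.26 (SE 0.08, adjusted *p* = 0.0046) was not called with DESeq2 (adjusted *p* = 0.0542).

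*ITGA2*, a collagen-binding subunit, was counted at 7.94, 8.77 and 7.53 CPM in control, 8.1, 6.25 and 8.62 CPM with si025 and 3.38, 4.33 and 4.04 CPM with si033. All of its si033 libraries lay below control, whereas the si025 and control ranges overlapped. The change was -1.02 (SE 0.15, adjusted *p* = 3.13e-06) with si033 and -0.07 (SE 0.13, adjusted *p* = 0.664) with si025, not called, with a difference of 0.95 (SE 0.15, adjusted *p* = 5.67e-06). *ITGA4*, a subunit known from leukocytes that binds VCAM1 and fibronectin, was near the limit of detection, at 0.611, 1.38 and 1.62 CPM in control, 0.311, 0.248 and 0.265 CPM with si025 and 0.824, 0.774 and 0.414 CPM with si033. The si025 libraries lay below both other groups, which overlapped. The changes were -2.24 (SE 0.40, adjusted *p* = 3.52e-05) and -1.11 (SE 0.34, adjusted *p* = 0.00786), the second not called with DESeq2, or without si033 replicate 3 or control replicate 3 (adjusted *p* up to 0.149), and the difference of -1.14 (SE 0.47, adjusted *p* = 0.0391) was not called with DESeq2, or with replicate number as a block, or without si025 replicates 1, 2 or 3 or si033 replicates 1 or 2 (adjusted *p* up to 0.112). Of the alpha subunits not described singly, *ITGA1* ranged from 28.9 to 33.8 CPM and overlaps *PELO* on its own strand, so its count is uncertain. *ITGA7*, *ITGA9* and *ITGA10* lay between 1.08 and 8.26 CPM, and *ITGA8* and *ITGA11* had at most 16 and 2 counts in any library.

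Of 8 beta subunits 5 were tested. *ITGB1*, the partner of most alpha subunits, was abundant and moved little, at 263, 256 and 269.6 CPM in control, 251, 224 and 242 CPM with si025 and 253, 275 and 277 CPM with si033. The control and si033 ranges overlapped and si025 lay just below control. The changes were -0.14 (SE 0.05, adjusted *p* = 0.0136), not called without si025 replicate 2 or control replicate 3 (adjusted *p* up to 0.074), and 0.03 (SE 0.05, adjusted *p* = 0.639), which was not called, with a difference of -0.17 (SE 0.05, adjusted *p* = 0.00388). Against this level the alpha subunits shifted. The ratio of *ITGA6* to *ITGB1* per kb was 0.317 ± 0.00321 in control, 0.623 ± 0.0187 with si025 and 0.215 ± 0.00644 with si033 (mean ± SD, n = 3), and that of *ITGA3* to *ITGB1* was 0.0502 ± 0.00586 in control, 0.145 ± 0.00729 with si025 and 0.0678 ± 0.00606 with si033 (mean ± SD, n = 3). For *ITGAV* over *ITGB1* it was 0.169 ± 0.00457 in control, 0.249 ± 0.0141 with si025 and 0.184 ± 0.0168 with si033 (mean ± SD, n = 3). These ratios are descriptions with no test of their own.

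The beta 4 subunit pairs with alpha 6 alone, in hemidesmosomes. *ITGB4* was rare, at 0.873, 1.01 and 0.464 CPM in control, 2.96, 2.73 and 2.56 CPM with si025 and 0.659, 0.851 and 1.14 CPM with si033, and si025 stood above all other libraries. Its changes were 1.92 (SE 0.26, adjusted *p* = 1.22e-06) and 0.41 (SE 0.32, adjusted *p* = 0.297), the second not called, with a difference of 1.52 (SE 0.24, adjusted *p* = 1.15e-05). *ITGB5*, *ITGB6* and *ITGB8* encode partners of alpha V. *ITGB5* was counted at 61.3, 62.2 and 53.2 CPM in control, 87.8, 87.7 and 85.5 CPM with si025 and 44.2, 42.5 and 40.9 CPM with si033, in separate groups with si025 highest. Its changes were 0.57 (SE 0.06, adjusted *p* = 9.89e-09) and -0.46 (SE 0.06, adjusted *p* = 1.19e-06), with a difference of 1.04 (SE 0.06, adjusted *p* = 5.18e-13).

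*ITGB8*, whose receptor activates latent TGF-beta, was counted at 26.6, 27.2 and 30.4 CPM in control, 16.4, 12.6 and 16.1 CPM with si025 and 27.4, 32 and 29.2 CPM with si033. It was lower with si025 alone, with changes of -0.93 (SE 0.09, adjusted *p* = 4.47e-09) and 0.05 (SE 0.08, adjusted *p* = 0.596), the second not called, and a difference of -0.98 (SE 0.09, adjusted *p* = 1.52e-09). *ITGB6* was counted at 0.436, 0.507 and 0.425 CPM in control, 0.779, 0.844 and 0.973 CPM with si025 and 0.247, 0.387 and 0.345 CPM with si033, where si025 was the highest group. Its changes were 0.95 (SE 0.32, adjusted *p* = 0.0123), not called with DESeq2, or without si025 replicate 3 or control replicate 3 (adjusted *p* up to 0.117), and -0.43 (SE 0.40, adjusted *p* = 0.426), which was not called, with a difference of 1.38 (SE 0.34, adjusted *p* = 0.00111). The alpha V partners *ITGB5* and *ITGB8* thus had si025 changes of opposite sign. *ITGB2*, *ITGB3* and *ITGB7*, best known from leukocytes and platelets, had at most 20, 3 and 7 counts in any library and were not tested.

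Lysyl oxidases cross-link collagen and elastin. *LOX* was counted at 6.72, 4.71 and 4.52 CPM in control, 3.97, 2.38 and 2.96 CPM with si025 and 1.15, 1.47 and 1.62 CPM with si033. Both siRNA groups lay below control, and si033 below si025. The log2 fold changes were -0.78 (SE 0.19, adjusted *p* = 0.00114) and -1.81 (SE 0.22, adjusted *p* = 2.39e-07), and the siRNAs differed by 1.04 (SE 0.23, adjusted *p* = 5.17e-04). *LOXL2* was counted at 1.13, 0.942 and 1.47 CPM in control, 1.09, 1.29 and 0.884 CPM with si025 and 0.906, 1.55 and 1.07 CPM with si033, with all groups overlapping. Its values were -0.19 (SE 0.27, adjusted *p* = 0.553) and -0.10 (SE 0.27, adjusted *p* = 0.773) against control and -0.09 (SE 0.27, adjusted *p* = 0.786) between the siRNAs, none of them called, and the last had a 95% interval of -0.66 to 0.47.

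The 30 members that were not tested were all rare. None had more than 23 counts in any library, that highest count being of *COL12A1*, 18 had at most 10 counts over all 9 libraries, and 5 had no count at all, namely *COL21A1*, *COL6A6*, *COL8A1*, *COL10A1* and *COL15A1*. The members are long genes. Their median exon length was 6804 bases among those tested, against 4220 bases for all tested genes, and offsets for gene length left 44, 36 and 46 members called with si025, with si033 and between the siRNAs, beside 44, 36 and 47 without them.

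Next, 133 genes that make, process, cut or sense the matrix were examined in 5 lists, of which 104 were tested. With si025 53 rose and 25 fell (51% and 24%, beside 32.9% and 28.8% of all tested genes), shares close to those of the members. With si033 41 rose and 27 fell (39.4% and 26%, beside 26.9% and 27.8%). Between the siRNAs 47 were higher with si025 and 32 with si033 (45.2% and 30.8%, beside 31.2% and 29.7%). Their median log2 fold changes were 0.17, 0.09 and 0.11, beside 0.31, -0.21 and 0.56 for the members.

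For collagen synthesis and processing, 24 of 27 genes were tested. With si025 9 were higher and 8 lower (37.5% and 33.3%, beside 32.9% and 28.8% of all tested genes). With si033 7 were higher and 6 lower (29.2% and 25%, beside 26.9% and 27.8%). These shares were near those of all tested genes. The prolyl hydroxylase subunit *P4HA2* rose with si025 (1.01 with SE 0.14 and adjusted *p* = 9.06e-07), and its si033 value of 0.24 (SE 0.15, adjusted *p* = 0.171) was not called. *P4HA3*, another such subunit, rose with si033 by 1.06 (SE 0.35, adjusted *p* = 0.0137), which was not called with DESeq2, or without control replicate 2 (adjusted *p* up to 0.0658), and its si025 value was -0.05 (SE 0.41, adjusted *p* = 0.925), not called. The lysyl oxidase *LOXL4* rose with si025 (1.1 with SE 0.17 and adjusted *p* = 7.90e-06), with 0.21 (SE 0.19, adjusted *p* = 0.381) for si033, not called.

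Among metalloproteinases and their inhibitors, 12 of 30 genes were tested. With si025 8 were higher and 4 lower (66.7% and 33.3%, beside 32.9% and 28.8% of all tested genes). With si033 4 were higher and 6 lower (33.3% and 50%, beside 26.9% and 27.8%). These shares rest on few genes. *MMP10*, which encodes the matrix metalloproteinase stromelysin 2, was counted at 12.8, 14.1 and 13.5 CPM in control, 19.2, 24.1 and 23.1 CPM with si025 and 1.9, 2.71 and 2.38 CPM with si033. The groups were separate in the order seen for *HSPG2*. Its changes were 0.72 (SE 0.09, adjusted *p* = 2.80e-07) and -2.52 (SE 0.13, adjusted *p* = 2.59e-13), with a difference of 3.25 (SE 0.12, adjusted *p* = 2.53e-16). *ADAMTS1*, a protease that cuts versican and aggrecan, fell with both siRNAs (-1.22 with SE 0.05 and adjusted *p* = 5.87e-15 and -0.72 with SE 0.05 and adjusted *p* = 5.24e-11). The inhibitor *TIMP2* rose with both (1.13 with SE 0.08 and adjusted *p* = 7.85e-11 and 0.88 with SE 0.09 and adjusted *p* = 1.14e-08), and so did *MMP24* (1.28 with SE 0.09 and adjusted *p* = 1.49e-11 and 0.84 with SE 0.09 and adjusted *p* = 5.41e-08). *ADAM12* changed by 0.73 (SE 0.25, adjusted *p* = 0.0137), not called with DESeq2, or without si025 replicate 3 or control replicate 3 (adjusted *p* up to 0.0675), and by 1.05 (SE 0.24, adjusted *p* = 7.55e-04).

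Of the 5 lists, the intracellular adhesion machinery moved least against control, with 30 of 32 genes tested. With si025 13 were higher and 5 lower (43.3% and 16.7%, beside 32.9% and 28.8% of all tested genes). With si033 9 were higher and 7 lower (30% and 23.3%, beside 26.9% and 27.8%). Its median absolute log2 fold changes were 0.14 and 0.21, the lowest of the 5 lists, beside 0.256 and 0.222 for all tested genes. Between the siRNAs the median was 0.276, beside 0.245. *FERMT2*, which encodes the integrin activator kindlin 2, was counted at 15.9, 18.7 and 17.3 CPM in control, 20.9, 20.8 and 22.8 CPM with si025 and 6.67, 6.42 and 7.45 CPM with si033. The si033 libraries lay below all others. Its changes were 0.32 (SE 0.08, adjusted *p* = 0.00125) and -1.31 (SE 0.09, adjusted *p* = 5.15e-11), with a difference of 1.63 (SE 0.09, adjusted *p* = 2.89e-13). *TNS1*, which encodes tensin 1, had an si025 value of 1.0 (SE 0.33, adjusted *p* = 0.0113), which was not called with DESeq2, or without si025 replicate 2 or control replicate 3 (adjusted *p* up to 0.0933).

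Of non-integrin matrix receptors 19 of 21 were tested. With si025 11 were higher and 6 lower (57.9% and 31.6%, beside 32.9% and 28.8% of all tested genes). With si033 11 were higher and 4 lower (57.9% and 21.1%, beside 26.9% and 27.8%). *BCAM*, a receptor for laminins with the alpha 5 chain, was counted at 216, 202 and 197 CPM in control, 573, 589.9 and 547 CPM with si025 and 246, 218 and 223 CPM with si033. It was far higher in every si025 library than elsewhere, as was its ligand chain *LAMA5*. Its changes were 1.48 (SE 0.05, adjusted *p* = 1.31e-16) and 0.16 (SE 0.05, adjusted *p* = 0.00876), the second not called without si033 replicate 1 or control replicate 3 (adjusted *p* up to 0.0558). *CD44*, the hyaluronan receptor, was counted at 10.6, 9.28 and 10.6 CPM in control, 25.9, 23.5 and 22.2 CPM with si025 and 4.86, 5.57 and 5.59 CPM with si033, in separate groups with si025 highest. Its changes were 1.22 (SE 0.09, adjusted *p* = 3.17e-11) and -0.91 (SE 0.11, adjusted *p* = 2.48e-07), with a difference of 2.13 (SE 0.10, adjusted *p* = 6.64e-15). The endocytic receptor *LRP1*, which clears thrombospondins and proteases, rose with both siRNAs (1.17 with SE 0.07 and adjusted *p* = 2.21e-12 and 0.30 with SE 0.08 and adjusted *p* = 0.00246). The glypican *GPC6* rose with si033 (1.52 with SE 0.11 and adjusted *p* = 5.02e-11) and the collagen receptor *DDR2* fell with it (-1.27 with SE 0.30 and adjusted *p* = 9.12e-04). Neither was called with si025, where the values were -0.12 (SE 0.13, adjusted *p* = 0.418) and 0.31 (SE 0.24, adjusted *p* = 0.264).

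In the TGF-beta pathway, which drives matrix genes in many cells, 19 of 23 genes were tested. With si025 12 were higher and 2 lower (63.2% and 10.5%, beside 32.9% and 28.8% of all tested genes). With si033 10 were higher and 4 lower (52.6% and 21.1%, beside 26.9% and 27.8%). The ligand *TGFB3* was counted at 0.873, 0.435 and 0.386 CPM in control, 1.25, 1.14 and 1.19 CPM with si025 and 11.9, 10.1 and 8.52 CPM with si033. The si033 libraries were far above all others. Its changes were 1.2 (SE 0.33, adjusted *p* = 0.00288), not called without control replicate 3 (adjusted *p* = 0.0523), and 4.27 (SE 0.23, adjusted *p* = 3.11e-13), with a difference of -3.06 (SE 0.19, adjusted *p* = 2.00e-12). *TGFB2*, another ligand, fell with si033 (-1.64 with SE 0.22 and adjusted *p* = 9.76e-07) and had an si025 value of -0.31 (SE 0.18, adjusted *p* = 0.146), not called. The receptor *TGFBR2* rose with si025 (1.82 with SE 0.27 and adjusted *p* = 4.61e-06), with 0.32 (SE 0.34, adjusted *p* = 0.44) for si033, not called. *LTBP2*, which binds fibrillin microfibrils, rose with si033 (1.58 with SE 0.30 and adjusted *p* = 1.03e-04) and had -0.10 (SE 0.37, adjusted *p* = 0.836) with si025, not called. *TGFBI*, a matrix protein induced by TGF-beta, fell with si025 (-1.06 with SE 0.31 and adjusted *p* = 0.00538) and had 0.16 (SE 0.27, adjusted *p* = 0.658) with si033, not called.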

How the data were processed

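RNA-seq libraries of VCaP cells were assigned to control, si025 and si033 (3 each) by their sample titles. Per the submitters' processing notes, reads were aligned to hg38 with HISAT2 2.1.0, and the authors made the deposited counts with featureCounts 1.5.2. These deposited counts are whole numbers of read pairs on the sense strand of exons, per gene symbol of a RefSeq annotation (the methods of the study name GENCODE), with no normalization. The exon length of each gene, also deposited, was used for CPM per kb. All rows were named genes. Read pairs of near-identical copies and of genes overlapping on the same strand are not counted by that program's defaults.

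From these counts, edgeR 4.0.16 in R 4.3.3 was used for the quasi-likelihood test after TMM scaling and the default expression filter, in a single fit of all 9 libraries with 3 group means and no covariate, followed by Benjamini-Hochberg adjustment over 12810 genes. All adjusted *p* values of genes come from this test unless another is named. Each standard error is the fold change divided by the square root of F, and 95% intervals are approximate, from that error and the t distribution. The biological coefficient of variation was 4.13%. Counts of a few per library carry large counting error, so changes of members near the filter are imprecise. Tested on counts simulated with the same spread for all genes, the fit recovered changes planted with si025. Changes as small as the smallest called here were not planted, so recovery of these was not tested. No change was planted in the rarest genes, so recovery for the rarest members, such as *SPARC*, was not tested. Replicates differed by more than counting noise (chi-square per degree of freedom 1.69 to 5.09), so none was treated as a duplicate.

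The members and the lists of companion and marker genes were chosen with earlier results of these data known. Values in every library were given for members called with at least a 2-fold change in any contrast, for the 2 most abundant members per length of each role, and for their partner chains, and the others are given by ranges. Companion genes were named if called with the largest change of a list or at least 2-fold changed in a comparison of either siRNA with control. The alternatives were RLE and upper quartile scaling, DESeq2 1.42.0, no filter, a filter of more than 1 CPM in at least 3 libraries, fits of the groups compared, replicate number as a block, gene length offsets, and leaving out each library. No set test was run. One tested member, kept in all counts over the members, and 1 marker gene, left out of its list, are not reported here. The siRNA sequences are not shown, since the labels do not tie si025 and si033 to named sequences.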

Additional observations from a re-analysis of the deposited data

Results flagged for a closer look

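For 60 of the 69 named genes the effects of the siRNAs differed, in edgeR's quasi-likelihood test of si025 against si033 (adjusted *p* under 0.05). Members were named in part for a 2-fold change in this same comparison, so that choice itself raised the count. The values in brackets are log2 differences, positive where si025 was the higher. Of all tested genes, 31.2% were higher with si025 and 29.7% with si033 in this comparison, shares that were not selected in this way.

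Of the fibril-forming collagens, *COL1A1* (1.27), *COL2A1* (0.72), *COL5A1* (1.91) and *COL5A2* (2.05) were higher with si025. Among the collagen IV genes, si025 was the higher for *COL4A3* (0.95), *COL4A4* (1.08), *COL4A5* (0.21) and *COL4A6* (0.56), and si033 for *COL4A2* (-0.68). Of the fibril-associated collagens, *COL9A2* (2.09), *COL9A3* (0.64), *COL14A1* (1.8) and *COL16A1* (1.37) were higher with si025. Of the other collagens, *COL6A1* (0.81), *COL6A2* (0.35) and *COL26A1* (1.55) were higher with si025. Among the laminin chains, si025 was the higher for *LAMA4* (3.16), *LAMA5* (0.86) and *LAMC1* (0.13), and si033 for *LAMA1* (-1.32), *LAMB1* (-0.50) and *LAMB3* (-1.04). Among the integrin alpha subunits, si025 was the higher for *ITGA2* (0.95), *ITGA3* (0.93), *ITGA5* (2.25), *ITGA6* (1.37) and *ITGAV* (0.26), and si033 for *ITGA4* (-1.14). Among the integrin beta subunits, si025 was the higher for *ITGB4* (1.52), *ITGB5* (1.04) and *ITGB6* (1.38), and si033 for *ITGB1* (-0.17) and *ITGB8* (-0.98). Among the adhesive and fibrillar glycoproteins, si025 was the higher for *FN1* (0.56), *VTN* (4.11), *THBS1* (1.94) and *SPARC* (1.99), and si033 for *TNC* (-0.80). Of the basement membrane linkers, *NID1* (1.45) and *HSPG2* (2.38) were higher with si025. Of the cross-linking oxidases, *LOX* (1.04) was higher with si025. Among the companion genes of synthesis, proteolysis, adhesion and TGF-beta signalling, si025 was the higher for *P4HA2* (0.77), *LOXL4* (0.90), *MMP10* (3.25), *MMP24* (0.44), *TIMP2* (0.24), *FERMT2* (1.63), *TNS1* (0.75), *DDR2* (1.59), *CD44* (2.13), *BCAM* (1.32), *LRP1* (0.87), *TGFB2* (1.34) and *TGFBR2* (1.5), and si033 for *P4HA3* (-1.11), *ADAMTS1* (-0.50), *GPC6* (-1.64), *TGFB3* (-3.06), *LTBP2* (-1.68) and *TGFBI* (-1.22). These differences were refitted without each library in turn, wherever the gene was still tested. The calls of *COL4A5*, *COL4A6*, *COL6A2*, *LAMC1*, *ITGA4*, *TIMP2* and *TNS1* were lost without at least 1 of the libraries. No other check for outlying libraries was made.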

How the results depend on the processing

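Every alternative kept the number of members called within 1.5 times of the main number. Over 17 alternatives it was 39 to 49 with si025, 30 to 40 with si033 and 42 to 51 between the siRNAs, beside 44, 36 and 47, and over leaving out 1 library it was 39 to 47, 30 to 38 and 43 to 48. For the companion genes it was 66 to 79, 62 to 70 and 74 to 82, beside 78, 68 and 79. Among the 207 results of named genes (69 genes in 3 contrasts) 162 were called. Of these, 136 were called in the same direction under every alternative that tested the gene, and 26 lost the call under at least 1. The rarest genes were not tested in some alternatives, so *COL17A1* with si025 was tried in 14 of the 17 and *SPARC* with si033 in 15. A further 7 results that were not called gained a call under at least 1 (*COL4A3*, *COL6A2*, *COL18A1* and *ITGAV* with si033, *COL4A2* with si025, *FBN1* and *AGRN* between the siRNAs), and 0 reversed. The gained and lost calls are given beside each gene, except for *TNS1* and *TIMP2* between the siRNAs, which were not called with DESeq2, or without the filter, or in a fit of the groups compared, or with replicate number as a block, or without si025 replicates 1, 2 or 3 or si033 replicates 1 or 2 or control replicates 1, 2 or 3 (adjusted *p* up to 0.164) and not called without si033 replicate 3 (adjusted *p* = 0.0512), respectively. The causes were not tested. Same-numbered libraries did not deviate together (correlations from -0.0214 to 0.0729), so the replicate numbers were not taken to pair them. With replicate number as a block the counts were 44, 36 and 45 members. Of the named results, the block ended the calls of *ITGA4* and *TNS1* between the siRNAs. No other scaling moved the median of all genes by more than 0.0316 on the log2 scale. Depth limits the rarest members most, and without the filter 85 of the 90 members could be fitted.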
